A study of Drosophila melanogaster with 3 samples.

Results

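The genes of 10 Drosophila promoter factors and insulator proteins were examined for binding of the transcription factor Sp1: M1BP, Dref, Trl, psq, Clamp, BEAF-32, CTCF, su(Hw), Cp190 and mod(mdg4). They were picked by name from the 13945 protein-coding genes on the main chromosome arms, and every Sp1 peak whose summit lay in the gene body or within 3 kb of it was assigned to the gene. The data are ChIP-seq peak lists of 1 group with 3 biological replicates, all from whole wandering larvae of the third instar, males and females together. The line carried a transgene for Sp1 with GFP at its C terminus (strain Sp1-GFP), and chromatin was recovered through the GFP tag. No other genotype, stage or treatment is present, and whole larvae do not show in which tissue a site was bound. Besides the replicate lists there are a list called on the pooled replicates and the authors' optimal set of 8001 peaks, chosen by reproducibility. In these files the optimal peaks are the top of the pooled ranking by signal. Of the 10 genes, 9 had an optimal summit within 500 bp of one of their own transcription start sites (TSSs), against 27.8% of all protein-coding genes, and the exception was Clamp. A gene with more TSSs has more chances of such a summit, and psq, Trl and BEAF-32 have 5, 4 and 3.

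Promoter factors of this kind bind short core elements close to a TSS and help to recruit or pause RNA polymerase II, and M1BP and Dref serve many housekeeping genes in this way. GA-repeat factors such as Trl keep promoters free of nucleosomes. Insulator proteins limit contacts between enhancers and promoters and mark borders of chromosome domains: BEAF-32, CTCF and su(Hw) each recognise their own DNA sequence, while Cp190 and mod(mdg4) are shared partners without such a sequence preference of their own. Sp1 belongs to the Sp/KLF zinc finger family, whose members are known to bind GC boxes and CACCC boxes.

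The 200 bases around the strongest own-promoter summits of 7 of these genes, and around the strongest summits inside Trl and mod(mdg4), show what DNA lies under the peaks (Release 6 reference genome, dm6 coordinates, plus strand, while all these genes lie on the minus strand). Capitals mark words searched on both strands, which were GGGCGG (the GC box), GGGCGTGG (a KLF box), CACCC (the CACCC box), TATCGATA (the DNA replication-related element, DRE, bound by Dref), CGATA (bound by BEAF-32), GGTCACAC (the core of Motif 1, bound by M1BP), GAGAG (the GA element of Trl and psq), GAGAGAGA (a long GA run, bound by Clamp), AGNNGGCGC (a CTCF core) and TGCATA (a su(Hw) core). CGATA lies inside TATCGATA, which reads the same on both strands, and GAGAG lies inside GAGAGAGA. The first 3 sequences are the promoters with the highest signal, at chr3R:15275292-15275491, chr2L:9967187-9967386 and chr3R:8731787-8731986.
Cp190: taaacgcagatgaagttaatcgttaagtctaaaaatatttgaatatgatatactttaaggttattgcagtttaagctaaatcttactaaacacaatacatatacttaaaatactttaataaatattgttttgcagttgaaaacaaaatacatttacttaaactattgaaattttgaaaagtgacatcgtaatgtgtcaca
Dref: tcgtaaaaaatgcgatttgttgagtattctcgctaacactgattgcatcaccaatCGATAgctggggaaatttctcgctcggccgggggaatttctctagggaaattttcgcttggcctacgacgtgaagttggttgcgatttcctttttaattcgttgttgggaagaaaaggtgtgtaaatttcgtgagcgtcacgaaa
M1BP: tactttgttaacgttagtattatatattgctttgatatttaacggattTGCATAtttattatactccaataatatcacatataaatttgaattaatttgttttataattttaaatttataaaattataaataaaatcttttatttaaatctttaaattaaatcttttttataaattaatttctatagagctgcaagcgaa

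The next pair are the promoters that hold a whole DRE, at chr3L:7356549-7356748 and chr3R:21377264-21377463, followed by the promoters of Trl at chr3L:14757095-14757294 and su(Hw) at chr3R:14308824-14309023.
CTCF: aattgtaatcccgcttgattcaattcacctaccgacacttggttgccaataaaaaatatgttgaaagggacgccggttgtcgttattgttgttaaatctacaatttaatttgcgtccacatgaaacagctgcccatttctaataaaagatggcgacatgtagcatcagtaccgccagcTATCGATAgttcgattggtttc
mod(mdg4): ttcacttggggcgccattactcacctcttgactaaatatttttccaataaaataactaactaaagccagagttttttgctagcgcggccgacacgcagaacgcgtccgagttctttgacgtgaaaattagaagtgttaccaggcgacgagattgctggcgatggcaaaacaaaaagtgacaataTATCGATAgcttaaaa
Trl: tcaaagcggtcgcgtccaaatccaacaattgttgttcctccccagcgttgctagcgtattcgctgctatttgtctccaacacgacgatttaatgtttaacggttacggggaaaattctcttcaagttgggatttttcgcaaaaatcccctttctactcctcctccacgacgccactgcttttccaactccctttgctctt
su(Hw): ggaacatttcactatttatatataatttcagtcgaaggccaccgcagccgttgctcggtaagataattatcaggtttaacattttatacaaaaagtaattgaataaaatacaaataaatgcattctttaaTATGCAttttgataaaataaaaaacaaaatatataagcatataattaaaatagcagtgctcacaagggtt

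The last pair surround the strongest summits inside gene bodies, in an intron of Trl at chr3L:14759412-14759611 and among the precursor genes of mod(mdg4) at chr3R:21365331-21365530.
Trl intron: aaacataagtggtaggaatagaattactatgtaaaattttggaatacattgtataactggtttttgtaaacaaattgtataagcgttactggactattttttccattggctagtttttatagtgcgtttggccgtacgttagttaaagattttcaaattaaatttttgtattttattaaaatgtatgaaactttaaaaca
mod(mdg4) precursors: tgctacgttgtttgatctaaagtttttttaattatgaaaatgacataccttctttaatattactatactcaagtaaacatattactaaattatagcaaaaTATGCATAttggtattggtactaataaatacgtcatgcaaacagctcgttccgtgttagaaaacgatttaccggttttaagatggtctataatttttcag

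The Cp190 and M1BP promoter peaks and the Trl intron peak lay in A+T-rich DNA. None of the printed windows held a GC box or a CACCC box. That includes the promoters of Dref and Trl, where G+C content within 100 bp of the summit was 43.3% and 46.8%. The Dref window held a site that differs from the DRE by the substitution T1A on the printed strand (the DRE's base first, then the site's, counted from 1 at the 5′ end of TATCGATA), 10 to 17 bp upstream of the Dref TSS. The DRE of CTCF lay 14 to 21 bp upstream of its TSS, and that of mod(mdg4) lay 47 to 54 bp upstream. In both, the summit of Sp1-GFP was downstream of the TSS, at 64 bp in CTCF and 37 bp in mod(mdg4).

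Sp1-GFP peaks at these promoters fell into a strong set and a weak set. The genes Cp190, Dref, M1BP, psq and Trl had pooled signals between 1097 and 3618, and BEAF-32, su(Hw), mod(mdg4) and CTCF had signals between 263 and 437. The lowest signal in the optimal set is 220. The sets were drawn from this gap in the pooled signal, which comes from the same 3 replicates, so the replicate values only describe it. At the highest promoter summit of each gene, the lowest value in the strong set was 408 in replicate 1, 248 in replicate 2 and 477 in replicate 3. The highest in the weak set was 150, 163 and 207, and CTCF gave no value in replicate 3. The median top promoter signal was 1097 for the 9 genes and 484 for all 3873 genes with an optimal promoter peak. Signals are the authors' caller's values and have no stated scaling between lists, so replicates are compared below by the log2 ratio of a summit to that replicate's own median over optimal promoter summits (155 in replicate 1, 165 in replicate 2 and 156 in replicate 3).

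**Figure D1:**
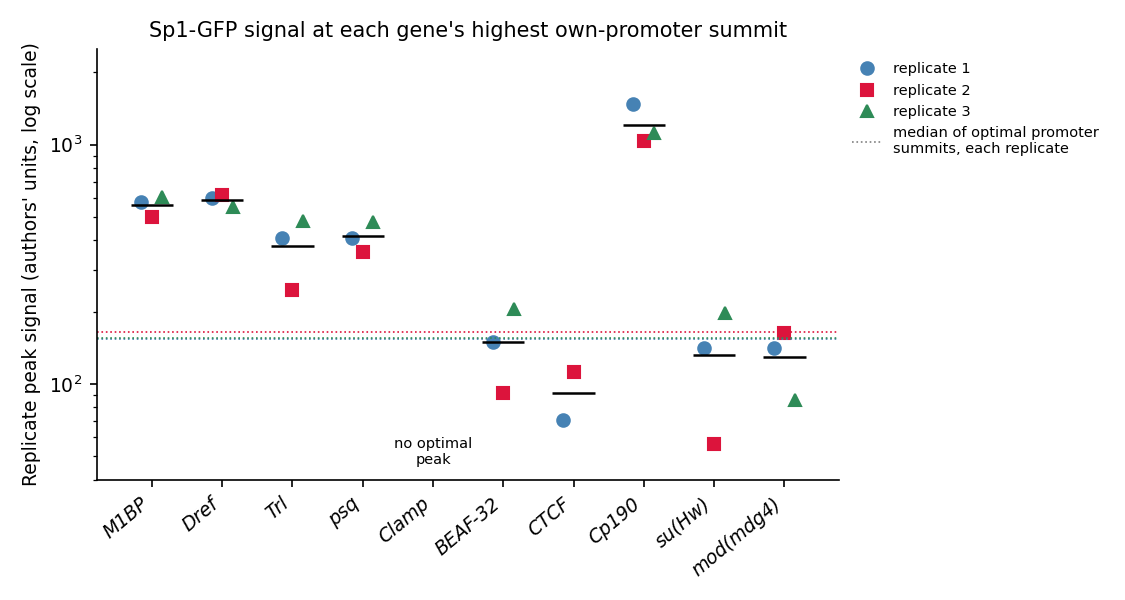
Signal of Sp1-GFP (authors' units, log axis) at the highest own-promoter summit of each gene, with 1 symbol per replicate, a bar at the mean and dotted lines at each replicate's median over optimal promoter summits. Cp190 lies highest in all 3 replicates, between 1040 and 1473, BEAF-32, CTCF, su(Hw) and mod(mdg4) lie around or below the medians, CTCF has no peak in replicate 3, and Clamp has no optimal peak.

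Among the promoter factors, M1BP, whose protein binds Motif 1 and is linked to paused polymerase, had 1 optimal summit in its window (3R, gene 8729790 to 8731698, minus strand). It lay 189 bp upstream of the TSS, with a pooled signal of 1672 and signals of 574, 499 and 607 in replicates 1, 2 and 3 (560 ± 55.4, SD, n = 3). The replicates lay close together, and each was above its list's median, by a mean log2 ratio of 1.82 ± 0.19. The same summit is 204 bp upstream of CG8202, which is transcribed the other way from a TSS 393 bp from that of M1BP, so the peak cannot be given to either gene alone. G+C content within 100 bp of the summit was 15.9%, the lowest of all 40 optimal summits in the windows of the 10 genes. In the optimal set, 401 genes, M1BP and CG8202 included, had a promoter peak at least as high.

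Dref encodes the DRE-binding factor of DNA replication and growth genes (2L, 9964147 to 9967229, minus strand). Its main summit lay 58 bp upstream of its TSS and 26 bp upstream of the divergent RpL13, a ribosomal protein gene whose TSS is 84 bp away. The pooled signal was 1747, and the replicates had 600, 619 and 551 (590 ± 34.7, SD, n = 3), the smallest relative spread of any own-promoter summit found in all replicates. The log2 ratio to the replicate median was 1.89 ± 0.07. A second summit of the same interval, 260 bp upstream, had 227 and a peak of 134 in replicate 2 alone. The third summit, at the promoter of CG5850 beyond the 3′ end of Dref, had 373, with 145, 138 and 89.3 in the replicates. The main summit was higher than that of CG5850 in every replicate, by a log2 ratio of 2.28 ± 0.30 (SD, n = 3).

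Trl encodes GAGA factor (3L, 14747929 to 14761049, minus strand, with 4 annotated TSSs). Its highest summit was not at a promoter but in an intron, 1537 bp downstream of the first TSS, with a pooled signal of 5452 and rank 40 among the 30000 pooled peaks. The replicates had 2129, 1680 and 1689 there (1832 ± 257, SD, n = 3), the highest values of any summit of the 10 genes. The own-promoter summit lay 141 bp downstream of an internal TSS, at 1097, with 409, 248 and 478 in the replicates (378 ± 118, SD, n = 3). The intron summit was higher in each replicate, 5.0-fold on average, which is a log2 ratio of promoter to intron of -2.32 ± 0.47. A second intron summit had 1065 (309, 429 and 343), and the weakest, 653 bp downstream of the first TSS, had 283 (67.4, 38.3 and 170) and was among the 8001 strongest peaks in replicate 3 alone. No optimal summit lay within 500 bp of the first TSS. At the TSS that Trl shares with CG42507, a pooled summit of 168 was below the optimal set.

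The gene psq encodes another factor of GA repeats, with a BTB domain and known for roles in oogenesis and patterning (2R, 10557888 to 10617280, plus strand, 5 TSSs). Its window of 65393 bp held 19 optimal summits, and 12 protein-coding genes, psq included, had as many or more. That is 2.91 summits per 10 kb, and 7.79% of all genes reached that density. Own promoters held 4 of the 19. The highest of these, 96 bp downstream of an internal TSS, had 1240, with 408, 357 and 477 in the replicates (414 ± 60.2, SD, n = 3). The summits 161 bp upstream and 472 bp downstream of the first TSS were lower, at 422 (106, 174 and 179) and 315 (201, 30.2 and 123). The fourth, 111 bp upstream of another TSS, had 347 (94.3, 62.1 and 203). The spread was wide at the summits of 315 and 347, where replicate 2 was lowest each time.

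Of the other 15 summits of psq, 14 lay in introns and 1 lay upstream of the gene. An intron pair 199 bp apart was the strongest, at 1495 (428, 547 and 523) and 1185 (294, 433 and 378). The first of them was higher than the best psq promoter in every replicate, with a log2 ratio of promoter to intron of -0.27 ± 0.30 (SD, n = 3). A group in the distal intron reached 983 (321, 148 and 515) and 675 (246, 171 and 267), and the remaining 11 summits had pooled signals between 240 and 650. Between the strong intron pair and the distal group, the widest gap between pooled summits in the window measured 12490 bp. The reference genome has a Tirant transposable element of 8527 bp in that gap, and its part in the absence of peaks was not tested.

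**Figure D2:**
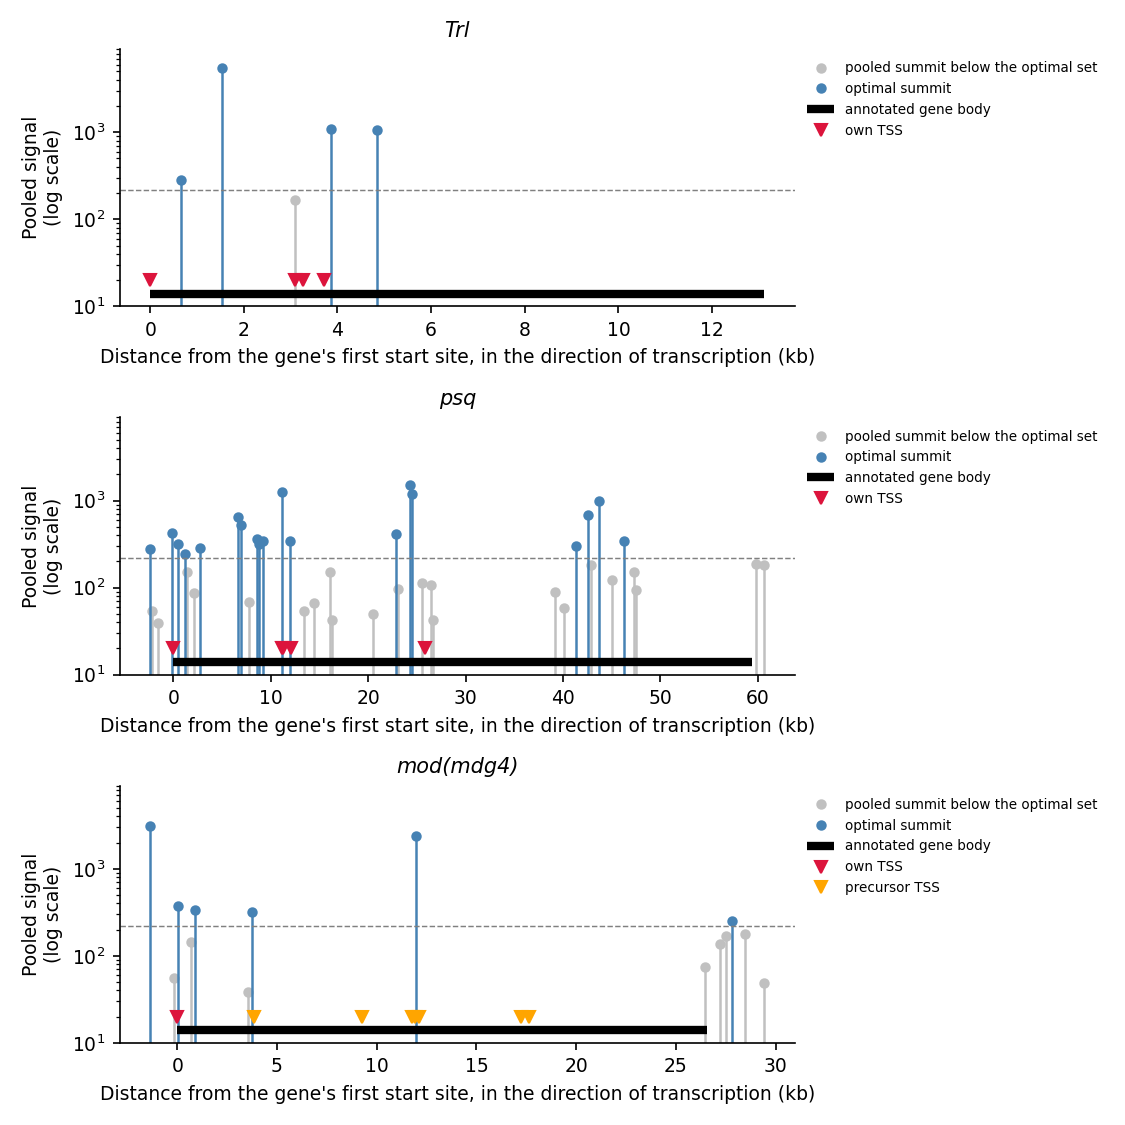
Pooled Sp1-GFP signal (log axis) of each summit in the windows of Trl, psq and mod(mdg4), against distance from the gene's first start site in kb along the direction of transcription. Blue lines are optimal summits, grey lines pooled summits below the optimal set (dashed line at 220), black bars the gene bodies, and triangles the start sites of the gene (red) and of the mod(mdg4) precursor genes (orange). The highest summit of each panel lies away from the gene's own start sites: 5452 in Trl, 1495 in psq and 3118 in mod(mdg4).

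Clamp encodes a zinc finger protein of long GA repeats that takes part in dosage compensation of the male X chromosome (2L, 22165720 to 22169143, minus strand). No optimal summit lay in its window. The pooled list had 1 summit there, 196 bp upstream of the TSS, with a signal of 38.0 and rank 27783, and no replicate peak lay within 100 bp of it. Replicate 1 had summits of 35.6 and 20.4 in the window, and replicate 2 had one of 81.4, 259 bp downstream of the TSS. Replicate 3 had none. The 203 kb made up of the gene and 100 kb on either side held no optimal summit and 3 pooled summits, where the genome-wide density gives 12.2 and 45.6. This stretch has 16 protein-coding genes. The nearest optimal summit was 287222 bp from the TSS, and none lay between Clamp and the centromere-proximal end of 2L. For the other 9 genes, the same stretch held between 7 optimal summits at BEAF-32 and 37 at psq. The lists do not show whether reads could be placed in this stretch as well as elsewhere, and that was not tested.

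The DNA-binding insulator genes had promoter summits below the median of 484 over all genes with one. BEAF-32, which encodes the boundary element factor that binds CGATA, lies on 2R (14770469 to 14772630, plus strand, 3 TSSs) and had 2 own-promoter summits. The first, 51 bp upstream of a TSS, had 437, with 150, 91.6 and 207 in the replicates (150 ± 57.9, SD, n = 3). The second, 11 bp upstream of an internal TSS and with CGATA nearby, had 416, with 142, 175 and 99.9 (139 ± 37.6, SD, n = 3). Replicate 2 was the lowest at the first and the highest at the second, so the order of these summits differed between replicates. The remaining summit, of 386, lay at the promoter of Spred, a regulator of Ras signalling, with 130 and 152 in replicates 1 and 2 and no peak in replicate 3.

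CTCF, whose vertebrate relative is the best known insulator protein, had 1 optimal summit (3L, gene 7353578 to 7356713, minus strand), 64 bp downstream of its TSS. Its pooled signal of 263 was the lowest among the highest promoter summits of the 9 genes. Replicates 1 and 2 had 71.2 and 112, and replicate 3 had no peak within 100 bp. Only in replicate 2 was it among the 8001 strongest peaks; the highest promoter summits of the other 8 genes were so in at least 2. The signal was under the replicate median in both replicates, with a log2 ratio of -0.84 ± 0.39 (SD, n = 2).

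The protein of su(Hw) binds the insulator of the gypsy retrotransposon (3R, 14304455 to 14308589, minus strand). Its promoter summit lay 335 bp upstream of the TSS, at 383, with 142, 56.2 and 199 in the replicates (132 ± 71.8, SD, n = 3). Replicate 2 had less than the other replicates and did not have this site among its 8001 strongest peaks. The summit is nearer to the divergent Polr2I, a gene for a subunit of RNA polymerase II, lying 165 bp upstream of it. A pooled summit of 192, the highest below the optimal set in any of the 10 windows, lay 413 bp downstream of the su(Hw) TSS (111, 93.3 and 20.3). The other optimal summit of the window, in an intron of CG31321, had 369, with 156, 93.4 and 125. Neither su(Hw) nor BEAF-32 differed from the replicate median by more than the spread between replicates: the log2 ratios were -0.44 ± 0.99 and -0.16 ± 0.64 (SD, n = 3 each).

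Cp190 encodes the centrosomal and chromosomal BTB protein that several insulator proteins share as a partner (3R, 15270432 to 15275241, minus strand, 2 TSSs). It had the strongest own-promoter summit of the 10 genes, 151 bp upstream of its TSS, with a pooled signal of 3618 and rank 116. The replicates had 1473, 1040 and 1114 (1209 ± 231, SD, n = 3), each above every replicate value of the other own promoters. The log2 ratio to the replicate median was 2.91 ± 0.30, or 7.54-fold. A promoter peak as high or higher was found at 97 genes (2.5% of those with an optimal promoter peak), Cp190 and its neighbour CG4338 included. The same DNA serves CG4338, which runs the other way from a TSS 281 bp off and starts 130 bp from the summit. The 4 other pooled summits of the window, at Zip88E, at the divergent starts of MRG15 and Tm1, and in a coding exon, had at most 97.6.

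The BTB partner protein of su(Hw) comes from mod(mdg4) (3R, 21350846 to 21377401, minus strand), a gene known for trans-splicing, in which the shared first exons are joined to alternative last exons made from separate precursor RNAs of either strand. The summit at its own TSS was weak, at 370, with 141, 163 and 85.7 in the replicates (130 ± 39.8, SD, n = 3), and replicate 3 was lowest. Inside the gene body stood a much stronger summit, at 2373 and rank 291, with 924, 610 and 864 (799 ± 166, SD, n = 3). It lies within 500 bp of TSSs of 10 of the 23 annotated precursor genes, 3 on the minus strand (pre-mod(mdg4)-AB, C and E) and 7 on the plus strand (AD, AE, U, V, W, X and Y). A summit of 317 (159 and 115 in replicates 1 and 2, no peak in replicate 3) lay 59 bp upstream of pre-mod(mdg4)-AA, N and O. The remaining 10 precursors had no optimal or pooled summit within 500 bp. The precursors are annotated as protein-coding genes and each counts as a gene in the shares over all genes.

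The highest signal in the mod(mdg4) window belonged to a neighbour. A summit of 3118, with 1217, 1100 and 820 in the replicates (1046 ± 204, SD, n = 3), lay 221 bp upstream of tin, the homeobox gene of heart formation, and 1355 bp upstream of mod(mdg4). It was 8.23-fold higher than the mod(mdg4) promoter on average over the replicates (log2 ratio of promoter to neighbour summit -3.04 ± 0.26). The other summits were an intron summit of 334, found in replicates 1 and 2 (130 and 153), and one of 249 at the promoter of aus beyond the 3′ end (97.4, 112 and 47.3).

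**Figure D3:**
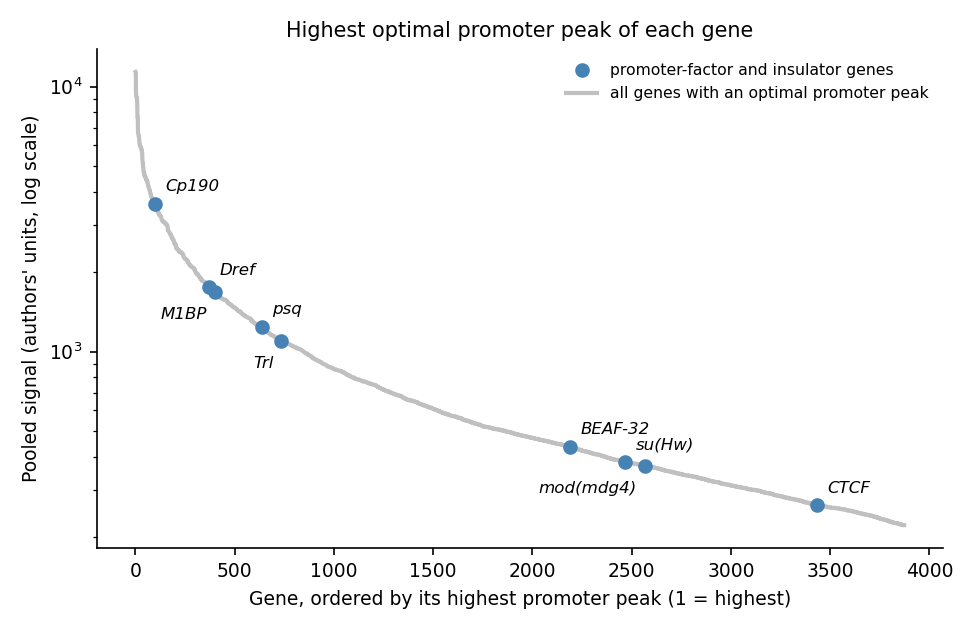
Pooled signal (log axis) of the highest optimal promoter peak of the promoter-factor and insulator genes (blue) on the curve of all 3873 genes with such a peak (grey), ordered from highest to lowest. Cp190 has 97 genes as high or higher, Dref 373 and M1BP 401, while CTCF, with 3435, lies near the low end. Each count includes the gene itself and any gene with the same peak.

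Taking each replicate list on its own, 8, 9 and 8 of the 10 genes had one of the 8001 strongest peaks within 500 bp of a TSS in replicates 1, 2 and 3, against 30.2%, 29.4% and 23.7% of all protein-coding genes. The lower share in replicate 3 goes with fewer promoter peaks in that list, where 36.5% of the strongest peaks were at promoters, against 48.1% and 49.9% in replicates 1 and 2. In the window of gene body and flanks, 9 of 10 genes had an optimal summit, against 47.8% of all genes, with a median window length of 9780 bp for the 10 genes and 8166 bp for all. In the gene body alone, 5 of 10 had one, against 17.1% of all genes. Summits per 10 kb had a median of 1.91 for the 10 genes, and over all genes a median of 0 and a mean of 0.902. Of 14 summits at own promoters, 9 had a match within 100 bp in each replicate's top 8001, against 49.9% of all optimal promoter summits. The genes were named by hand, so these counts carry no test.

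Own-promoter summits were upstream of the gene's own TSS in 9 of 14. Of all optimal promoter summits, 68.2% were upstream of the nearest TSS, a measure that can differ where genes share a promoter. The weaker Dref promoter summit, for example, is upstream of Dref but 159 bp downstream of the RpL13 TSS. Of the 14, 5 also lay within 500 bp of another gene's TSS, against 31.8% of all optimal promoter summits. Of the 26 optimal summits beyond own promoters, 19 were in introns, 6 at promoters of other genes and 1 between genes. None of those away from promoters lay in a coding exon or untranslated region, and those at promoters were not checked for this. The median coefficient of variation over replicates was 24.9% for the 8 genes whose highest own-promoter summit was found in every replicate and 22.9% for all such genes. It was 5.89% at Dref and 9.90% at M1BP and reached 54.2% at su(Hw). Across all 40 summits, 32 had a peak within 100 bp in every replicate list, against 79.3% of all optimal summits. In replicate 3, 6 had none, and 88.9% of all optimal summits had one there.

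The exact sign-flip permutation test over replicates, two-sided, cannot go below p = 0.25 with 3 replicates or 0.5 with 2, so no ratio could pass 0.05. For the log2 ratio to the replicate median, tested in 9 genes, Cp190, Dref, M1BP, psq, Trl and mod(mdg4) reached 0.25 (0.375 after Benjamini-Hochberg adjustment). The first 5 were above the median in 3 of 3 replicates. The mod(mdg4) ratio was -0.34 ± 0.46 (SD, n = 3), within its spread, and -0.07 without replicate 3. BEAF-32 and su(Hw) were each above it in 1 of 3 and gave p = 0.75 in this exact test (0.75 adjusted), and CTCF gave 0.5 in its 2 replicates (0.643 adjusted). The ratio of promoter to strongest other summit was tested in the 6 genes that have both. In each gene both summits were picked by pooled signal, which comes from the same 3 replicates. The direction of this ratio is therefore a description, and its p-values are no independent support for it. Dref, Trl, psq and mod(mdg4) gave 0.25 (0.375 adjusted), su(Hw) gave 0.75 (0.9 adjusted) and BEAF-32, measured in 2 replicates, gave 1 in the same exact test. The psq ratio was negative in 3 of 3 replicates, with a mean smaller than its SD.

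The strong summits of these genes spanned a wide range of base composition. The median G+C content within 100 bp was 33.8% for the 11 summits with a pooled signal of 1000 or more and 36.3% for the 29 below, and over all optimal summits it was 32.1% and 36.8%. Low values were found at M1BP (15.9%), Cp190 (23.4%), the Trl intron (25.4%) and the mod(mdg4) precursors (27.9%), and 4 of the 11 were above the 35.8% median of all optimal summits. These 4 were the promoters of Dref (43.3%), Trl (46.8%) and psq (39.8%) and an intron summit of psq (43.3%). At own promoters the median was 38.1% for the 14 summits and 38.3% for all optimal promoter summits.

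**Figure D4:**
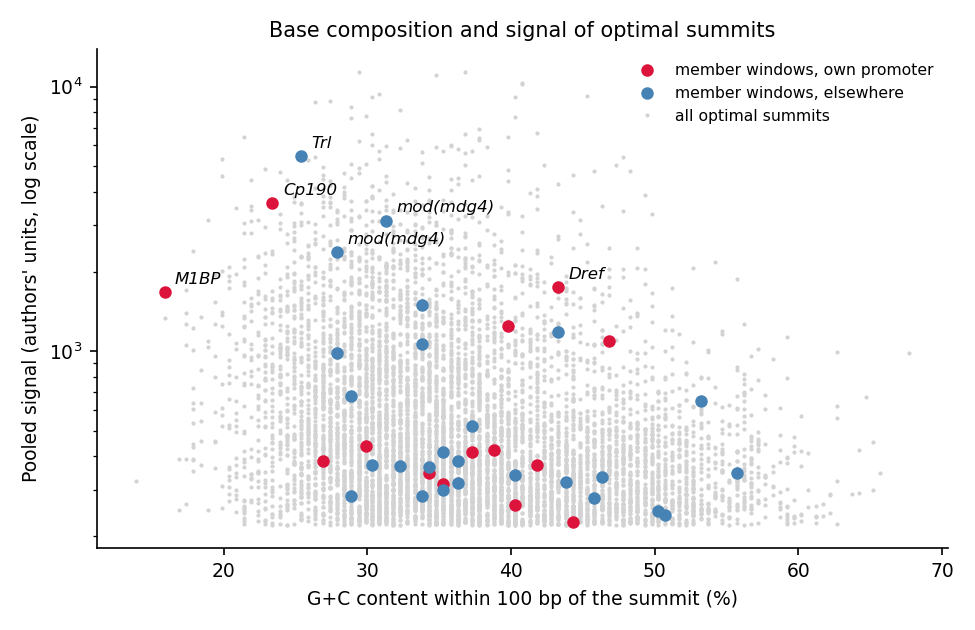
G+C content within 100 bp of each optimal summit against its pooled signal (log axis), for own-promoter summits (red) and other summits (blue) in the windows of the 10 genes and for all 8001 optimal summits (grey). Named points have the highest signals, and M1BP, at 15.9%, lies near the left edge of the whole set.

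GC boxes stood near few of these peaks, at a share close to that of the whole optimal set. GGGCGG was found within 100 bp of 2 of the 40 summits, both in psq introns, against 4.3% of all optimal summits, and of none of the 14 own-promoter summits, against 4.66% of all optimal promoter summits. GGGCGTGG was found at none (0.487% of all), and CACCC at 9 of 40 (22.5%, against 16.8% of all), 7 of them in psq. At own promoters CACCC was at 1 of 14 summits (7.14%), against 18% of all optimal promoter summits. Within 250 bp, GGGCGG was at 12.5% of the 40, against 14.7% of all, and CACCC at 60%, against 42.1%. For own-promoter summits alone, CACCC within 250 bp was at 35.7%, against 40.7% of all optimal promoter summits. These letters being absent from a window says nothing on how Sp1-GFP met the DNA there. Of the words bound by the encoded factors, CGATA was at 7 of 14 own-promoter summits, against 35.4% of all optimal promoter summits. TATCGATA was at 2 of 14, against 5.96%. Several of the 7 lay in psq, and at CTCF and mod(mdg4) the CGATA was the one inside TATCGATA. Within 50 bp, CGATA was at 4 of 14, against 19.2% of all optimal promoter summits. GAGAGAGA was at 6 of 40, against 2.54%, with 4 of the 6 in psq and 2 in mod(mdg4), so this count rests on 2 genes. Within 50 bp it was at 5% of the 40 summits, against 0.837%, and TATCGATA was at none of them, against 1.29%. At the highest psq promoter the run starts within 11 bp of the summit. The shorter GAGAG was at 9 of 40, against 24.9%.

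GGTCACAC was at 2 of 40 summits (2.55% of all), at the promoters of CG5850 and Spred next to Dref and BEAF-32, and at none of the 14 own promoters (5.2%). TGCATA was at 5 of 40 (13.8% of all), among them the promoter summits of su(Hw) and M1BP and the precursor summit of mod(mdg4), where it starts at the summit base. AGNNGGCGC was at none of 40 (1.8% of all). A factor's own word stood near its own gene's promoter summit for BEAF-32, psq and su(Hw), while Dref had the 1-substitution site given above, and M1BP, Trl and CTCF had none within 100 bp. Each match is a description of the letters, not of binding by that factor.

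Other genes of the same kind were mixed. Of 44 further insulator, architectural and promoter factor genes, 43 could be matched, and 17 of these (39.5%) had an optimal promoter peak, against 27.8% of all genes. Interband and cofactor genes had one in 6 of 9, and promoter-proximal and general promoter factor genes in 9 of 14. DNA-binding insulator genes other than BEAF-32, CTCF and su(Hw) had one in 1 of 9, which was pita (347), and cohesin and condensin genes in 0 of 6. Among 5 dosage compensation partners of Clamp, msl-1 alone had one, at 228, close to the lowest optimal signal.

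The highest of these promoter peaks was at Chro, the gene of the interband protein Chromator, with 5920. Its replicate signals were 1968, 1683 and 2302 (1984 ± 310, SD, n = 3), above those of the Cp190 promoter in every replicate. The same peak also lies within 500 bp of a TSS of Ssl1, so it cannot be given to Chro alone. Next came lola, a BTB factor gene of axon growth, with 2203 (698, 750 and 783), and grh, the gene of an epidermal transcription factor, with 1182 (435, 356 and 413). Cap-H2, a condensin II subunit gene, and dwg, a zinc finger insulator gene, had no optimal promoter peak.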

How the data were processed

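Sp1-GFP ChIP-seq peak lists of each replicate, of the pooled replicates and of the optimal set were used. Lists, per the deposited text descriptions, were called against 1 control alignment and the optimal set was made by the irreproducible discovery rate. Positions are in dm6, per the labels. Which aligner and caller were run is not given in the sources used here. As deposited, the signal of a peak is the authors' caller's own value, with no stated scaling between lists. The deposited −log10 q value was at its maximum for 36.9% of the pooled list, so peaks were ranked by signal. With no read counts in the files, depth per library is unknown.

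Each replicate and pooled list has 30000 lines, and the strongest 8001 of each replicate stood for it. A replicate's signal at a summit was that of its highest peak within 100 bp. Promoters were 500 bp either side of the 19607 protein-coding TSSs of Ensembl release 115 on 2L, 2R, 3L, 3R, 4 and X. No per-gene p-value across genes was computed. Words were searched within 100 bp of summits. Computations ran in Python 3.11.15 with scipy 1.17.1, pandas 2.3.3, numpy 2.4.6 and, for plots, matplotlib 3.10.9. The assignment of summits to promoters and gene windows was tested on simulated summits.

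The genes and lists were chosen with earlier results of these data known. Of 44 further symbols, zld matched under the older name vfl and SA was left out as ambiguous. All 10 genes were named with every optimal summit, with neighbours whose TSS lies within 500 bp of a summit, and, of the further genes, the 3 with the highest promoter signal and the first 2 by symbol without one. The class examples pita and msl-1 and pooled summits below the optimal set were named after their values were seen. Sequences are those of the 6 promoters with the highest pooled signal other than psq and BEAF-32, whose sequences are not printed. The CTCF promoter and the Trl and mod(mdg4) gene body summits were added after their values were seen. Replicates are separate biosamples of 1 line, so spreads are between biosamples.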

Additional observations from a re-analysis of the deposited data

How the results depend on the processing

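The count of genes with an optimal promoter peak was 6 to 10 of 10 under the alternatives: promoters of 200 or 1000 bp or the first TSS only, the 4001 strongest or all pooled peaks, each replicate list alone, and leaving out each replicate. For the counts of genes and window summits, leaving out a replicate kept the optimal set, which rests on all 3 replicates. Its summits were then counted only if among the strongest peaks of each remaining replicate, which is an added filter. Among these settings, the share of all genes is given above only for each replicate list alone. That share can change with the setting too, so the range does not show a stable difference from all genes. Counting the gene body alone, 5 genes had an optimal summit, against 17.1% of all genes. The 40 window summits became 19 with the 4001 strongest and 82 with all pooled peaks. With the added filter they were 24 to 29 when a replicate was left out. The same filter over all 3 replicates gave 23, so these counts do not measure what losing a replicate costs. Promoter sites strong in all 3 replicates fell to 5 of 14 with the 4001 strongest peaks per replicate, and the share of all optimal promoter summits at that setting is not given. The signs for BEAF-32 and su(Hw) were not stable. With 50 bp matching, their log2 ratios to the replicate median were 0.107 and 0.0385, and those of promoter to other summit 0.211 and 0.671. Leaving out a replicate, the ratios to the median ranged from -0.445 to 0.182 and from -0.836 to 0.114, and those to the other summit from -0.73 to 0.211 and from -0.431 to 0.271. The other ratios kept their signs. At 200 bp su(Hw) had no promoter summit and gave no ratio. The cause of these changes was not tested. No paired analysis between groups was possible because there is 1 group. Unknown depth and 3 replicates limit all values.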
